A study of Mus musculus with 13 samples.

Results

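The WNT ligands, receptors and antagonists of the mouse were taken as all protein-coding genes whose symbols start with Wnt, Fzd, Sfrp, Dkk or Rspo and a digit, together with Axin1, Axin2, Lrp5, Lrp6, the genes starting with Tcf7, and Lef1. The rule gave 49 members among the 55416 genes of the deposited count table. They comprised 19 WNT ligands, 4 R-spondins, 10 Frizzled receptors, 2 LRP co-receptors, 4 secreted Frizzled-related proteins, 4 Dickkopf antagonists, 2 Axin scaffolds and 4 transcription factors of the TCF/LEF family. No measured value entered the rule.

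Polyadenylated RNA was measured by sequencing in 13 tissue samples. Both tumor groups came from mice that carry Cre recombinase in the Cnp gene (allele Cnptm1(cre)Kan), a gene of myelinating oligodendrocytes. A lentivirus was placed in the motor cortex, and GFP+ tumor tissue was dissected when the mice had reached the clinical endpoint, from 5 mice in each group. The PDGFB tumors (n = 5, genotype label PDGFB-shP53) arose from a virus that expresses the growth factor PDGFB and a short hairpin RNA against p53, and the RAS tumors (n = 5, HrasV12-shp53) from one that expresses HRasV12, an activated Ras protein, and the same kind of hairpin. Normal brain tissue (n = 3) carries the label WT. The region it came from, and whether its 3 samples came from separate animals, are not stated in the labels used here. Their titles end in M1, F1 and F2, with no key to these letters, which may stand for sex. The spread within that group may therefore be technical or include differences between animals. The tumor samples were pieces of tissue, whatever cells they held. Mouse age and strain are not given in the sources used here.

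WNT proteins are secreted lipid-modified ligands that bind Frizzled receptors and the co-receptors LRP5 or LRP6. In the canonical branch this binding disables a destruction complex built on Axin, beta-catenin accumulates, and TCF/LEF factors switch on target genes, of which Axin2 is the standard readout and itself a brake on the pathway. R-spondins raise the receptor level at the cell surface, whereas secreted Frizzled-related proteins capture the ligands and most Dickkopf proteins block the co-receptors. In the brain the pathway is known for patterning, for the growth and barrier of blood vessels, and for the timing of oligodendrocyte maturation.

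The members were thinly covered. Libraries held 13952738 to 15607754 reads, but 84.5% to 87.3% of them fell in no annotated gene and only 529162 to 643055 were counted for genes. The members together received 95 to 317 reads in a library. Levels are counts-per-million (CPM) of the reads counted for genes. Summed over the family, the level was 174 to 294 CPM in PDGFB tumors, 221 to 493 CPM in RAS tumors and 180 to 233 CPM in normal brain; RAS tumor 5 was the highest library. A limit of 3 reads corresponds to 4.67 to 5.67 CPM in a library. The low-count filter, which asked for about 10 reads in enough libraries, was passed by 9 members of 7722 genes, so changes in the other 40 could be tested only without it. A member that was high in one group alone could pass through that group. No read was found in any library for Dkk1, Dkk4, Wnt3a and Wnt10b. Reads under the mouse rows of the genes in the design did not settle the labels: Pdgfb had 4 to 21 reads in the PDGFB tumors while RAS tumors had 1 to 4 and normal brain 3 to 6, Hras did not pass the test between RAS tumors and normal brain (log2 fold change -0.50, edgeR adjusted p = 0.286), and the p53 gene Trp53 had 0 to 5 reads in every library. Whether transcripts of the viruses were counted in these rows is not stated.

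**Figure D1:**
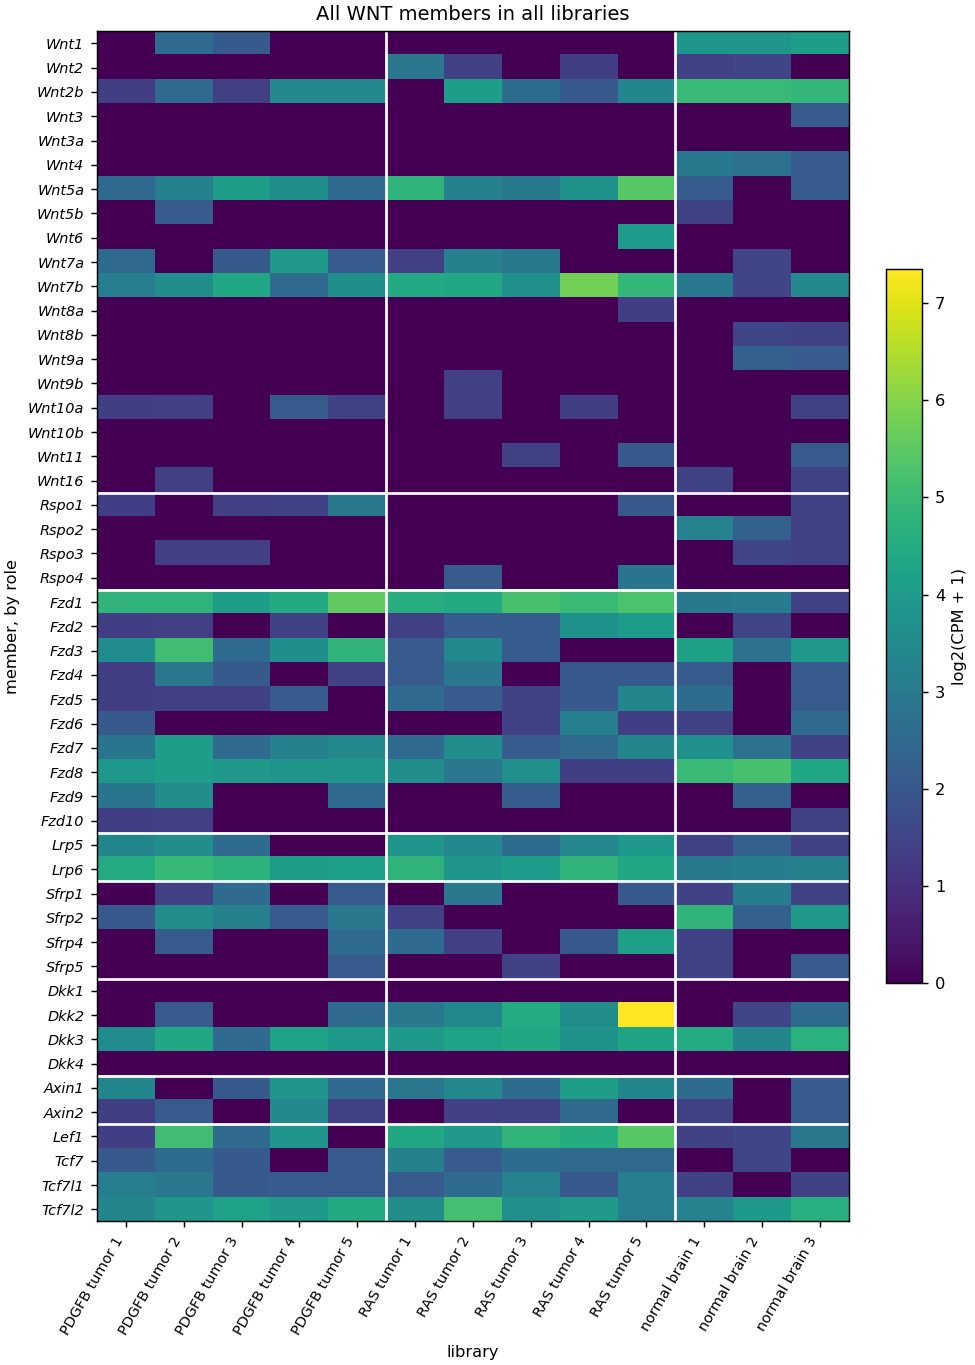
Level of each of the 49 members (vertical, ordered by role, white lines between roles) in each of the 13 libraries (horizontal), as log2(CPM + 1) in color. Most cells are at or near 0, and the brightest is Dkk2 in RAS tumor 5.

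A second property of the table bears on every member: whether another gene lies on the opposite strand. Exons of 10 members overlap exons of a gene on the other strand, 7 more lie opposite an intron only and 32 have no gene opposite. Whether the library kept the strand, and on which strand reads were counted, are not given in the sources used here, so reads of a member and of its opposite partner cannot be told apart here. For the same reason every level given is that of the reads counted under a gene's name, and whether they came from that gene's own transcript was not tested. The 10 members with an exon opposite received 483 reads in the 13 libraries, whereas the 10 rows on the other strand received 1834. Per kilobase of exon the members received 9.28 reads where an exon was opposite and 9.33 where no gene was, against 87.9 for the rows opposite a member. Over all protein-coding genes the figures were 135 reads per kilobase opposite an exon and 17.8 with no gene opposite.

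The pathway's standard readout is among the members with a better covered row opposite. Axin2 (chromosome 11) had 18 reads in all, at most 6 in any PDGFB tumor, 3 in any RAS tumor and 2 in any normal sample, which left it below the low-count filter. Fitted without the filter, it differed by 0.76 in PDGFB tumors against normal brain (log2, edgeR adjusted p = 0.693), by -0.10 in RAS tumors (adjusted p = 1) and by 0.86 between the tumor types (adjusted p = 0.582), and so passed in no comparison. Its opposite row, the antisense gene Gm11670 (chr11:108939310-108942015, minus strand, 511 bases of exon), had 218 reads. These genes overlap in 209 bases of exon, in 2 blocks, and these are shown because reads from them are the ones whose assignment to Axin2 or Gm11670 depends on strand alone. The sequences are from GRCm38, on the plus strand, 5′ to 3′, in lower case, and coding sequence of Axin2 makes up 103 of the 105 bases of the first block (chr11:108939310-108939414) and 104 of the 104 bases of the second (chr11:108941912-108942015).
Axin2 and Gm11670 shared block 1: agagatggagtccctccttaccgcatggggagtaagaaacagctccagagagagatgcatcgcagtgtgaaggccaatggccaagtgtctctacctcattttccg
Axin2 and Gm11670 shared block 2: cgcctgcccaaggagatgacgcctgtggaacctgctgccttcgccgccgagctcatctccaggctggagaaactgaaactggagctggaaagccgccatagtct

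Gm11670 was measured at 23.5, 46.0, 27.7, 24.8 and 29.8 CPM in PDGFB tumors 1 to 5, at 9.82, 21.3, 25.5, 15.9 and 18.7 CPM in RAS tumors 1 to 5, and at 46.0, 28.3 and 44.6 CPM in normal brain 1 to 3. Every RAS tumor was below every normal sample, whereas PDGFB tumor 2 lay among the normal samples. The row fell in RAS tumors by 1.21 ± 0.33 (log2, SE) against normal brain (edgeR adjusted p = 0.00501), a call kept in all 18 alternative analyses, with adjusted p up to 0.0417. In PDGFB tumors the difference from normal brain was -0.63 ± 0.32 (adjusted p = 0.121), and between the tumor types 0.59 ± 0.30 (adjusted p = 0.148). The 3 tested genes whose log2 CPM followed Gm11670 most closely over the 13 libraries were Rarres2 (Pearson r = 0.934), Slc25a11 (0.922) and Atmin (0.908), given as a description of libraries that share groups and depth.

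Of the ligands, 2 had enough reads for the test. Wnt2b, a ligand of the canonical branch known from the dorsal midline of the developing brain, was measured at 1.57, 4.93, 1.63, 9.92 and 9.92 CPM in PDGFB tumors 1 to 5, at 0, 16.4, 5.10, 3.18 and 9.33 CPM in RAS tumors 1 to 5, and at 30.7, 30.2 and 28.1 CPM in normal brain 1 to 3. All 10 tumors lay below all 3 normal samples. Wnt2b fell by 2.61 ± 0.62 (log2) in PDGFB tumors (edgeR adjusted p = 0.00237) and by 2.19 ± 0.60 in RAS tumors (adjusted p = 0.00508), and both calls held in all 18 alternatives each. The tumor types differed by -0.42 (interval of 2 SE either way, -1.74 to 0.90, edgeR adjusted p = 0.661). In bulk tissue, fewer cells that make a transcript and less of it per cell cannot be told apart.

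Several lists of normal cell markers were lower in the tumors, as Wnt2b was. The mature oligodendrocyte list summed to 990 to 1598 CPM in normal brain, 135 to 223 CPM in PDGFB tumors and 76.9 to 332 CPM in RAS tumors. For the 5 of 6 cortex markers with no exon opposite the sums were 279 to 361, 50.2 to 124 and 40.9 to 88.6 CPM. The 5 of 7 astrocyte markers with no exon opposite overlapped between the groups. Their sums were 283 to 419 CPM in normal brain, 154 to 354 CPM in PDGFB tumors and 83.2 to 525 CPM in RAS tumors. With all 7 the sums were 601 to 773, 191 to 483 and 102 to 642 CPM. PDGFB tumors then lay below normal brain, and RAS tumors overlapped it. Oligodendrocyte precursor markers were higher in PDGFB tumors. Over the 6 of 8 choroid plexus and ependyma markers with no exon opposite, the summed level was 57.8 to 148 CPM in normal brain, 0 to 8.27 CPM in PDGFB tumors and 0 to 6.57 CPM in RAS tumors. Ttr, the most abundant of them in normal brain, had no read in any RAS tumor, and neither had Kcne2 and Kl. Of the less abundant markers, Foxj1 had 7, 8 and 3 reads in PDGFB tumors, RAS tumors and normal brain, and Clic6 had 1, 2 and 11. With all 8 markers the sum was 112 to 213 CPM in normal brain, 22.8 to 57.5 CPM in PDGFB tumors and 9.82 to 35.8 CPM in RAS tumors. For the 7 of 8 neuron markers with no exon opposite, the level was 1325 to 1411 CPM in normal brain, 53.3 to 250 CPM in PDGFB tumors and 12.7 to 315 CPM in RAS tumors, with the highest RAS value in RAS tumor 2, which also had the highest Wnt2b level among the tumors. With the eighth marker Nefm, whose exons face Nefl, the sum was 5320 to 5690 CPM in normal brain, 207 to 595 CPM in PDGFB tumors and 3783 to 8209 CPM in RAS tumors, and RAS tumor 2 was then the lowest RAS tumor. Nefm alone had 844 reads over the PDGFB tumors, 15666 over the RAS tumors and 7160 over the normal samples, so with it the RAS tumors and normal brain overlapped on this list and without it they did not. The part of these cells in the Wnt2b difference was not tested.

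Wnt7b, the neural ligand that acts on brain endothelium through Frizzled and the co-receptor Gpr124, was the other ligand tested. Its level was 7.84, 11.5, 19.6, 4.96 and 11.6 CPM in PDGFB tumors 1 to 5, 21.3, 19.7, 11.9, 54.1 and 28.0 CPM in RAS tumors 1 to 5, and 6.81, 1.89 and 9.92 CPM in normal brain 1 to 3. Each RAS tumor was above each normal sample, and RAS tumor 4 was far above the other RAS tumors. Wnt7b rose by 1.98 ± 0.60 (log2) in RAS tumors (adjusted p = 0.00949) and was lower in PDGFB than in RAS tumors (-1.42 ± 0.45, adjusted p = 0.0232). The second call was lost without RAS tumor 4 (adjusted p = 0.104), without PDGFB tumor 1 (0.0575) and without PDGFB tumor 4 (0.0661). The PDGFB tumors did not differ from normal brain beyond the test (0.56, adjusted p = 0.507).

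The row opposite the start of Wnt7b, the antisense gene AU022754, shares 324 bases of exon with it. It stood at 7.84, 8.21, 6.52, 6.61 and 6.61 CPM in PDGFB tumors 1 to 5, at 16.4, 34.5, 8.49, 90.6 and 40.4 CPM in RAS tumors 1 to 5, and at 13.6, 17.0 and 8.26 CPM in normal brain 1 to 3. RAS tumor 4 was the highest library, as for Wnt7b, and the tumor groups did not overlap. AU022754 was lower in PDGFB than in RAS tumors (-2.54 ± 0.53 on the log2 scale, adjusted p = 0.00153). Against normal brain it rose in RAS tumors by 1.48 ± 0.59 (adjusted p = 0.0405), a call lost without RAS tumor 4 (0.112) and without any 1 of the normal samples (0.0534 to 0.123).

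Among the receptors, Fzd1, a Frizzled that signals through beta-catenin, had the highest level of the 9 tested members per kilobase of exon in both tumor types (6.53 and 7.03 CPM per kilobase in PDGFB and RAS tumors, 1.27 in normal brain). It stood at 26.7, 26.3, 16.3, 21.5 and 46.3 CPM in PDGFB tumors 1 to 5, at 22.9, 21.3, 35.7, 30.2 and 37.3 CPM in RAS tumors 1 to 5, and at 6.81, 7.56 and 1.65 CPM in normal brain 1 to 3. No tumor overlapped a normal sample. Fzd1 rose by 2.10 ± 0.51 (log2) in PDGFB tumors (adjusted p = 0.00280) and by 2.36 ± 0.50 in RAS tumors (adjusted p = 0.000713), in each of the 18 alternatives. The interval of the difference between the tumor types was -0.91 to 0.40 (adjusted p = 0.584).

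The co-receptor Lrp6, which passes the canonical signal to Axin, also rose in both tumor types. Its level was 22.0, 29.6, 26.1, 16.5 and 16.5 CPM in PDGFB tumors 1 to 5, 26.2, 13.1, 15.3, 27.0 and 20.2 CPM in RAS tumors 1 to 5, and 6.81, 7.56 and 8.26 CPM in normal brain 1 to 3. Again every tumor was above every normal sample. The rise was 1.30 ± 0.42 (log2) in PDGFB tumors (adjusted p = 0.0175) and 1.32 ± 0.42 in RAS tumors (adjusted p = 0.0126), and the tumor types differed by -0.03 (interval -0.63 to 0.58). The related co-receptor Lrp5 was below the filter, with 0 to 11.5 CPM in PDGFB tumors, 5.10 to 14.0 CPM in RAS tumors and 1.65 to 3.78 CPM in normal brain.

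The other Frizzled genes tested, Fzd8 and Fzd3, were lower in RAS tumors. Fzd8 was measured at 14.1, 16.4, 14.7, 13.2 and 13.2 CPM in PDGFB tumors 1 to 5, at 11.5, 6.57, 11.9, 1.59 and 1.56 CPM in RAS tumors 1 to 5, and at 30.7, 35.9 and 19.8 CPM in normal brain 1 to 3. The 3 groups did not overlap at all. Fzd8 fell by 2.20 ± 0.47 (log2) in RAS tumors (adjusted p = 0.000672, kept in 18 alternatives) and by 1.23 ± 0.43 in PDGFB tumors (adjusted p = 0.0261). The PDGFB call was lost with library totals in place of normalization factors (0.07), without the low-count filter (0.0838), and without any 1 of PDGFB tumors 3, 4 and 5 or normal brain 1 and 2 (0.0501 to 0.163). Between the tumor types Fzd8 differed by 0.98 ± 0.45 (adjusted p = 0.107).

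Fzd3, a receptor best known for axon guidance and planar polarity, was at 11.0, 32.8, 4.89, 11.6 and 26.5 CPM in PDGFB tumors 1 to 5, at 3.27, 9.85, 3.40, 0 and 0 CPM in RAS tumors 1 to 5, and at 17.0, 5.67 and 14.9 CPM in normal brain 1 to 3. The tumor groups overlapped only through RAS tumor 2 and PDGFB tumor 3. Fzd3 was higher in PDGFB than in RAS tumors by 2.20 ± 0.69 (log2; adjusted p = 0.0212), a call that held in all 15 alternatives that gave a value. It fell below the filter and gave no value without PDGFB tumor 2 or PDGFB tumor 5, which had its highest levels. The same held in the fit of the 2 groups alone and with the replicate block, so the call could not be checked there. Against normal brain it fell by 1.996 ± 0.80 in RAS tumors (adjusted p = 0.0420), and this call was lost in 8 of 15 alternatives: with library totals (0.0573), and on leaving out any 1 of RAS tumors 1, 3, 4 and 5, PDGFB tumor 4, or normal brain 1 or 3 (up to 0.163). RAS tumor 2, whose neuron, oligodendrocyte and astrocyte markers with no exon opposite were the highest of the RAS tumors, though it was the lowest of them over all 8 neuron markers, also had the highest Fzd3 level among them; the part of such cells was not tested.

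**Figure D2:**
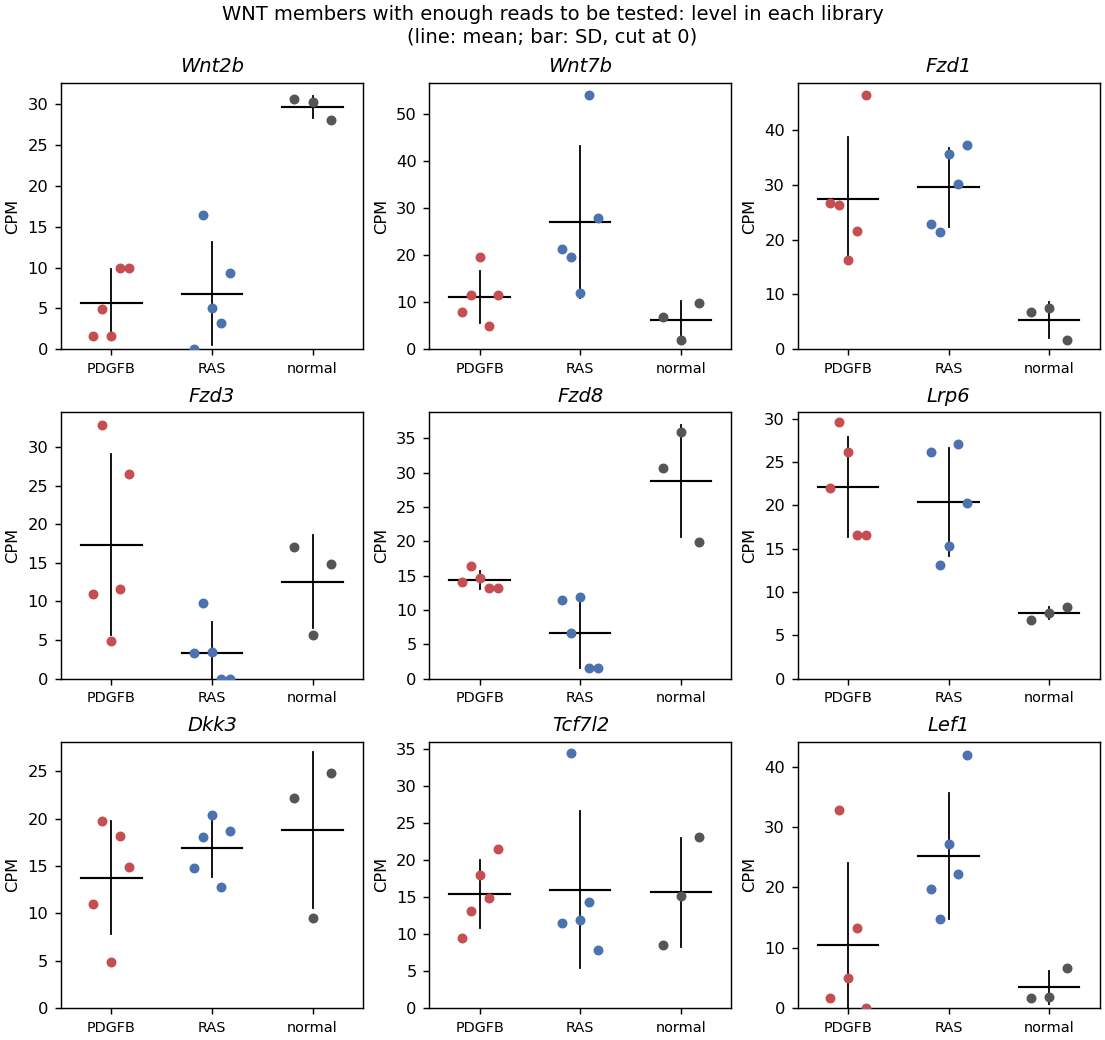
Level of the 9 members that passed the low-count filter, in CPM (vertical, axes differ between panels), with 1 point for each library of the PDGFB tumors, RAS tumors and normal brain; the line is the mean and the bar the SD. Wnt2b, Fzd1, Fzd8 and Lrp6 separate all tumors from normal brain, and Wnt7b and Lef1 separate the RAS tumors from it.

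Lef1, the family's transcription factor that mainly activates, varied widely between libraries. It stood at 1.57, 32.8, 4.89, 13.2 and 0 CPM in PDGFB tumors 1 to 5, at 19.6, 14.8, 27.2, 22.3 and 42.0 CPM in RAS tumors 1 to 5, and at 1.70, 1.89 and 6.61 CPM in normal brain 1 to 3. All RAS tumors exceeded all normal samples, whereas PDGFB tumors ranged from no read to a level above that of 4 of the 5 RAS tumors. Lef1 rose by 2.72 ± 0.90 (log2) in RAS tumors (adjusted p = 0.0161), a call lost without normal brain 1 (0.0634) or normal brain 2 (0.0575). Between the tumor types the difference of -1.41 ± 0.61 had an adjusted p of 0.0866, which became 0.018 without the low-count filter, 0.00750 without PDGFB tumor 2 and 0.0411 without RAS tumor 2.

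The antisense gene Gm43352 shares 1208 bases of exon with Lef1 and passed in no comparison with the filter and all libraries. It was at 6.61 to 54.5 CPM in PDGFB tumors, 18.7 to 98.2 CPM in RAS tumors and 26.4 to 45.4 CPM in normal brain. The groups overlapped throughout. Between the tumor types it was lower in PDGFB tumors without the low-count filter (adjusted p = 0.00928), without PDGFB tumor 4 (0.0227), without RAS tumor 2 (0.0307) and without RAS tumor 3 (0.023).

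The antagonist Dkk3, a divergent Dickkopf protein made by neurons and many other cells, and the transcription factor Tcf7l2, which marks newly formed oligodendrocytes and thalamic neurons, passed the filter but the test in no comparison. Dkk3 was at 4.89 to 19.7 CPM in PDGFB tumors (median 14.9), 12.7 to 20.4 CPM in RAS tumors (18.1) and 9.45 to 24.8 CPM in normal brain (22.1). Its fitted differences were -0.70 (interval -1.54 to 0.14) in PDGFB tumors and -0.26 (-1.08 to 0.57) in RAS tumors against normal brain. Tcf7l2 was at 9.41 to 21.5, 7.78 to 34.5 and 8.51 to 23.1 CPM in these groups, with RAS tumor 2 well above all other libraries, and its intervals were -1.21 to 0.70 for PDGFB and -1.03 to 0.88 for RAS tumors. Changes within these intervals remain compatible with the counts.

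The counts over the members follow from these values. Against normal brain, 4 of the 9 tested members passed in PDGFB tumors, where 45.3% of all genes tested did. Fzd1 and Lrp6 rose, as did 20.2% of all genes, and Wnt2b and Fzd8 fell, as did 25.1%. In RAS tumors 7 of 9 passed, against 56.2% of all genes. Fzd1, Lrp6, Wnt7b and Lef1 rose (26.9% of all genes did) and Wnt2b, Fzd3 and Fzd8 fell (29.3%). Between the tumor types 2 of 9 passed, against 32.1% of all genes, with Fzd3 higher (14.6% of all genes were) and Wnt7b lower (17.4%) in PDGFB tumors. Groups did not overlap for 4, 6 and 1 of the members, where 51.4%, 52.1% and 20.3% of all genes did not. Wnt2b and Fzd8 reached the low-count filter through the normal samples, and Wnt7b and Lef1 mainly through RAS tumors. Fzd1 and Lrp6 reached it through tumors of both types. These are the groups where they were high, so the counts of members called are a description and no support for a change of the family. The median log2 difference of the members was 0.21, -0.07 and -0.26 in the 3 comparisons, beside -0.00, 0.02 and 0.03 over all genes tested. Both tumor types were compared with the same 3 normal samples, so the 2 comparisons are not independent.

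**Figure D3:**
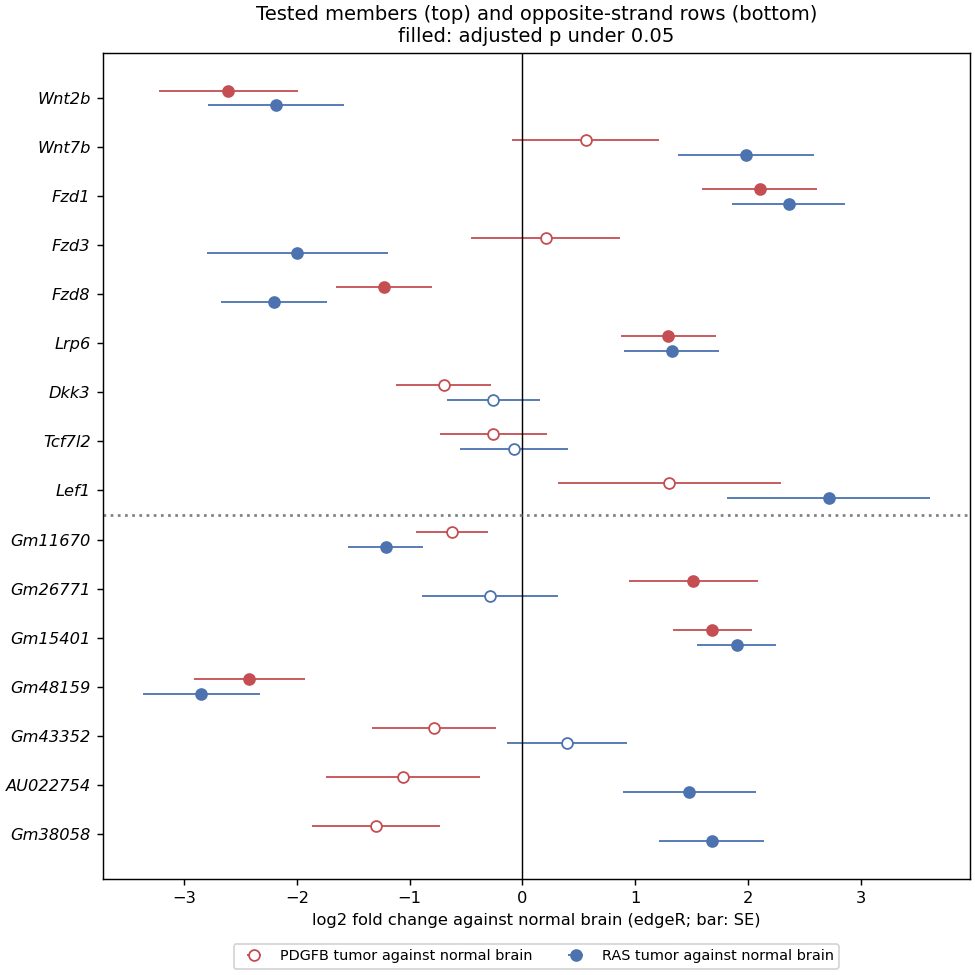
Fitted log2 fold change against normal brain (horizontal, bar: SE) of the 9 tested members and the 7 tested rows on their opposite strands (vertical), for PDGFB and RAS tumors; filled points have an adjusted p under 0.05. Fzd1, Lrp6, Wnt2b and Fzd8 are filled and on the same side for both tumor types, and Fzd3, AU022754, Gm26771, Gm38058 and Gm43352 lie on opposite sides.

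Most members had too few reads for the filter, and they were also fitted without it, over 23301 genes with at least 1 read. In that fit 6 members passed in PDGFB tumors against normal brain (18.1% of all genes did), 14 in RAS tumors (24.5%) and 7 between the tumor types (13.4%). Reads rather than CPM are given for them, because most values are single digits. Folds for these members rest on few reads, and where a group had none the bound assumes 3 reads over that group.

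Among ligands, Wnt1, the founding ligand of the family and a midbrain organizer, had 8, 7 and 10 reads in normal brain 1 to 3, 0, 3, 2, 0 and 0 reads in PDGFB tumors 1 to 5 and no read in any RAS tumor. It was lower in PDGFB tumors (adjusted p = 0.00170) and in RAS tumors (adjusted p = 1.21e-06), there 14.9-fold with 3 reads set in place of 0. Wnt4, a ligand of mostly beta-catenin independent action, had 4, 3 and 2 reads in normal brain 1 to 3 and none in any tumor. With 3 reads set in place of 0, it was 5.35-fold lower in PDGFB tumors (adjusted p = 0.00693) and 5.37-fold lower in RAS tumors (adjusted p = 0.00593). Both ligands were thus found in all normal samples and in few or no tumors, and no library left out changed these calls.

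Wnt5a, the main ligand of the beta-catenin independent branch, went the other way. It had 16, 5, 4, 8 and 27 reads in RAS tumors 1 to 5, 3, 5, 10, 7 and 3 reads in PDGFB tumors 1 to 5, and 2, 0 and 2 reads in normal brain 1 to 3. All RAS tumors exceeded all normal samples, and the rise passed in RAS tumors (adjusted p = 0.000366, count ratio 8.38, 95% counting interval 3.11 to 31.8). In CPM all PDGFB tumors also exceeded all normal samples, but that difference did not pass (log2 1.80, edgeR adjusted p = 0.0932). Between the tumor types Wnt5a overlapped and did not pass (-1.12, edgeR adjusted p = 0.0938). Its opposite row Gm2670 had 2 to 19 reads in RAS tumors, 0 to 8 in PDGFB tumors and 0 to 3 in normal brain. Wnt6 had all of its 10 reads in RAS tumor 5; its difference between the tumor types (adjusted p = 0.0253) was lost without any 1 PDGFB tumor (0.0533 to 0.0590). Wnt7a, the close relative of Wnt7b, had 0 to 9 reads in PDGFB tumors, 0 to 5 in RAS tumors and 0 to 1 in normal brain, and passed in no comparison.

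The R-spondins had at most 10 reads each. Rspo2 had 5, 2 and 1 reads in normal brain 1 to 3 and no read in any tumor. With 3 reads set in place of 0, it was 4.75-fold lower in PDGFB tumors (adjusted p = 0.0107) and 4.77-fold lower in RAS tumors (0.00919). Both calls were lost without normal brain 1 (0.104 and 0.0899). Rspo1, Rspo3 and Rspo4 had 10, 4 and 6 reads in all. The row opposite Rspo3, the antisense gene Gm48159 that shares 404 bases of exon with it, was abundant enough to test: it was at 54.8 to 63.0 CPM in normal brain, 6.61 to 21.2 CPM in PDGFB tumors and 0 to 18.1 CPM in RAS tumors. Gm48159 fell by 2.42 ± 0.49 (log2) in PDGFB tumors (adjusted p = 0.000755) and by 2.85 ± 0.52 in RAS tumors (adjusted p = 0.000178), with no overlap between tumors and normal brain.

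Among the Frizzled receptors below the filter, Fzd7 had 60 reads over all libraries, Fzd2 27, Fzd5 24 and Fzd4 22, and Fzd6, Fzd9 and Fzd10 had 3 to 18. Fzd7 was at 4.89 to 16.4 CPM in PDGFB tumors, 3.40 to 11.5 CPM in RAS tumors and 1.65 to 11.9 CPM in normal brain, and Fzd4 and Fzd5 did not exceed 6.57 and 9.33 CPM in any library. Fzd2 was the only one of them to pass: it had 1, 2, 2, 8 and 10 reads in RAS tumors 1 to 5, 0 or 1 in every PDGFB tumor and 0, 1 and 0 in normal brain 1 to 3. Its calls in RAS tumors against normal brain (adjusted p = 0.0279) and between the tumor types (0.0168) rested on RAS tumors 4 and 5, without either of which both were lost (0.0784 to 0.120); the first was also lost without normal brain 1 (0.125) or normal brain 3 (0.132). The row opposite Fzd5, Gm38058, shares 1233 bases of exon with it. It stood at 57.3, 37.8, 17.0, 41.3 and 28.0 CPM in RAS tumors 1 to 5, at 1.63 to 9.85 CPM in PDGFB tumors and at 9.45 to 11.9 CPM in normal brain. All RAS tumors were above all other libraries, and Gm38058 rose in RAS tumors against normal brain (1.68 ± 0.47, adjusted p = 0.00527) and was lower in PDGFB than in RAS tumors (-2.98 ± 0.43, adjusted p = 6.98e-05).

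Of the antagonists, Sfrp2 and Dkk2 passed between the tumor types, in opposite directions, whereas Sfrp1, Sfrp4, Sfrp5 and Dkk3 did not. Sfrp2, which binds WNT ligands outside the cell, had 16, 2 and 9 reads in normal brain 1 to 3, 2, 7, 5, 2 and 4 reads in PDGFB tumors 1 to 5, and 1 read in RAS tumor 1 with none in the other RAS tumors. It was lower in RAS tumors than in normal brain (adjusted p = 1.80e-06; ratio of normal brain to RAS 48.3, interval 7.96 to 1978) and higher in PDGFB than in RAS tumors (adjusted p = 0.00295; ratio 20.1, interval 3.21 to 832). Its opposite row, the antisense gene Gm26771 with 347 shared bases, was at 86.3, 92.0, 75.0, 109 and 74.4 CPM in PDGFB tumors 1 to 5, at 9.82, 18.1, 39.1, 0 and 45.1 CPM in RAS tumors 1 to 5, and at 27.2, 34.0 and 16.5 CPM in normal brain 1 to 3. Every PDGFB tumor was above every other library, and Gm26771 was higher in PDGFB than in RAS tumors (1.80 ± 0.48, adjusted p = 0.00856). Its rise in PDGFB tumors against normal brain (1.51 ± 0.57, adjusted p = 0.0386) was lost without PDGFB tumor 1, 2 or 4 (0.0572 to 0.0585) or any 1 normal sample (0.0563 to 0.132).

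Dkk2, a Dickkopf antagonist of the LRP co-receptors, was found mainly in RAS tumors. It had 4, 6, 13, 7 and 104 reads in RAS tumors 1 to 5, 0, 2, 0, 0 and 3 reads in PDGFB tumors 1 to 5, and 0, 1 and 3 reads in normal brain 1 to 3. All RAS tumors were above all other libraries, and RAS tumor 5 held 104 of the gene's 143 reads. Dkk2 rose in RAS tumors (adjusted p = 2.74e-09; count ratio 18.7, interval 7.14 to 69.7) and was lower in PDGFB than in RAS tumors (adjusted p = 8.00e-16). The largest adjusted p with a library left out was 0.0277 for the first call and 0.00139 for the second, both without RAS tumor 5. With that library left out the count ratio to normal brain was 5.30 (interval 1.87 to 20.7), the fitted log2 difference was 2.29 ± 0.83 against normal brain, and that of PDGFB against RAS tumors was -2.87 ± 0.72. Sfrp4 was also highest in RAS tumor 5, at 17.1 CPM against 0 to 4.96 CPM elsewhere, and passed in no comparison.

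Marker sums of stroma, and of microglia and macrophages, were mostly higher in RAS tumors, as Dkk2 was. The fibroblast and meninges list, over the 7 of 8 genes with no exon opposite, summed to 91.7 to 403 CPM in RAS tumors, 11.5 to 51.3 CPM in PDGFB tumors and 11.6 to 18.9 CPM in normal brain. With the eighth gene, Pdgfra, which had 672, 149 and 21 reads in PDGFB tumors, RAS tumors and normal brain, the sums were 151 to 439, 173 to 299 and 24.8 to 32.1 CPM in RAS tumors, PDGFB tumors and normal brain, and the tumor types then overlapped. For the pericyte and smooth muscle list (5 of 6 genes) the level was 21.3 to 93.3, 6.27 to 17.9 and 8.51 to 19.8 CPM, and for the 8 endothelial markers 23.8 to 63.8, 8.26 to 34.7 and 16.5 to 25.5 CPM. The 5 of 8 microglia and macrophage markers with no exon opposite also separated the groups, at 270 to 476, 64.1 to 126 and 17.0 to 39.7 CPM. With all 8 of these markers the sums were 584 to 900, 305 to 422 and 359 to 405 CPM in RAS tumors, PDGFB tumors and normal brain. RAS tumor 5, which held most reads of Dkk2 and all of Wnt6, was the highest library on the fibroblast, the pericyte and the microglia lists. Not every gene of the stroma lists followed: Slc6a13 and Myh11 had no read in any tumor. Reads in PDGFB tumors, RAS tumors and normal brain were 13, 11 and 7 for Foxc1, 13, 9 and 1 for Kcnj8, and 11, 11 and 2 for Kdr. They were 6, 5 and 2 for Emcn and 5, 4 and 9 for Slco1a4. The order of the libraries by Lef1 and by Dkk2 matched that by the 7-gene fibroblast sum in part only. RAS tumor 5 was the highest library for each of these. PDGFB tumor 2 had 32.8 CPM of Lef1 with the lowest tumor sum (11.5 CPM). RAS tumor 3 had 13 reads of Dkk2 with the lowest RAS sum (91.7 CPM). The part of these cells in the levels of Dkk2, Wnt5a, Wnt6, Sfrp4 and Lef1 was not tested.

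**Figure D4:**
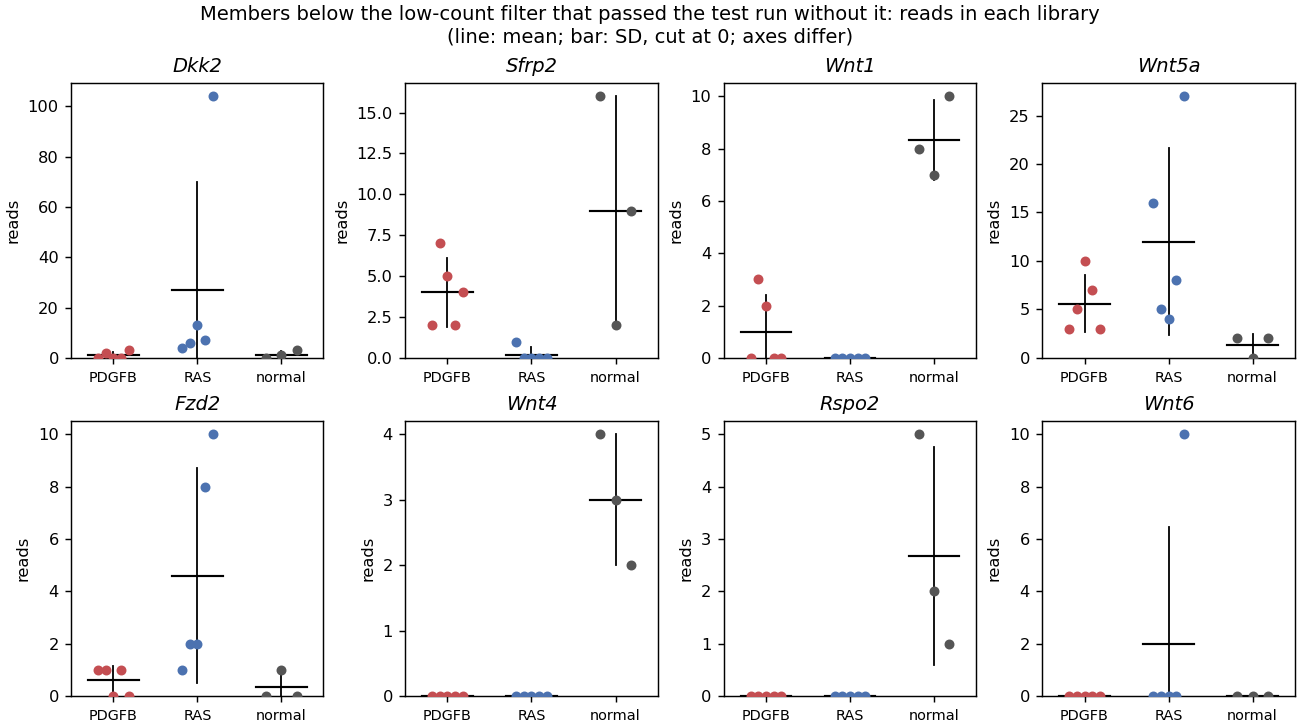
Reads (vertical, axes differ) in each library of the 8 members below the low-count filter that passed in a fit without it, with the mean as a line and the SD as a bar. Dkk2 and Fzd2 passed as higher in RAS tumors than in either other group, and Wnt5a as higher in RAS tumors than in normal brain only. Sfrp2, Wnt1, Wnt4 and Rspo2 are lower in RAS tumors than in normal brain, and Wnt6 rests on RAS tumor 5 alone.

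Of the remaining scaffold and TCF members, Axin1, the constitutive scaffold of the destruction complex, had 53 reads and stood at 0 to 13.2 CPM in PDGFB tumors, 5.10 to 15.9 CPM in RAS tumors and 0 to 5.11 CPM in normal brain. Tcf7 was at 0 to 4.93, 3.28 to 8.18 and 0 to 1.89 CPM and Tcf7l1 at 3.26 to 7.84, 3.18 to 8.49 and 0 to 1.70 CPM in these groups, and neither passed in any comparison without the filter. Tcf7l1 faces the antisense gene Gm15401, which shares 179 bases of exon with it and had 373 reads. Gm15401 stood at 65.9, 60.8, 73.4, 38.0 and 36.4 CPM in PDGFB tumors 1 to 5, at 78.6, 52.5, 54.4, 52.5 and 52.9 CPM in RAS tumors 1 to 5, and at 15.3, 9.45 and 18.2 CPM in normal brain 1 to 3. It rose by 1.68 ± 0.35 (log2) in PDGFB tumors (adjusted p = 0.000880) and by 1.90 ± 0.35 in RAS tumors (adjusted p = 0.000196), with no overlap between tumors and normal brain and in all 18 alternatives each.

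**Figure D5:**
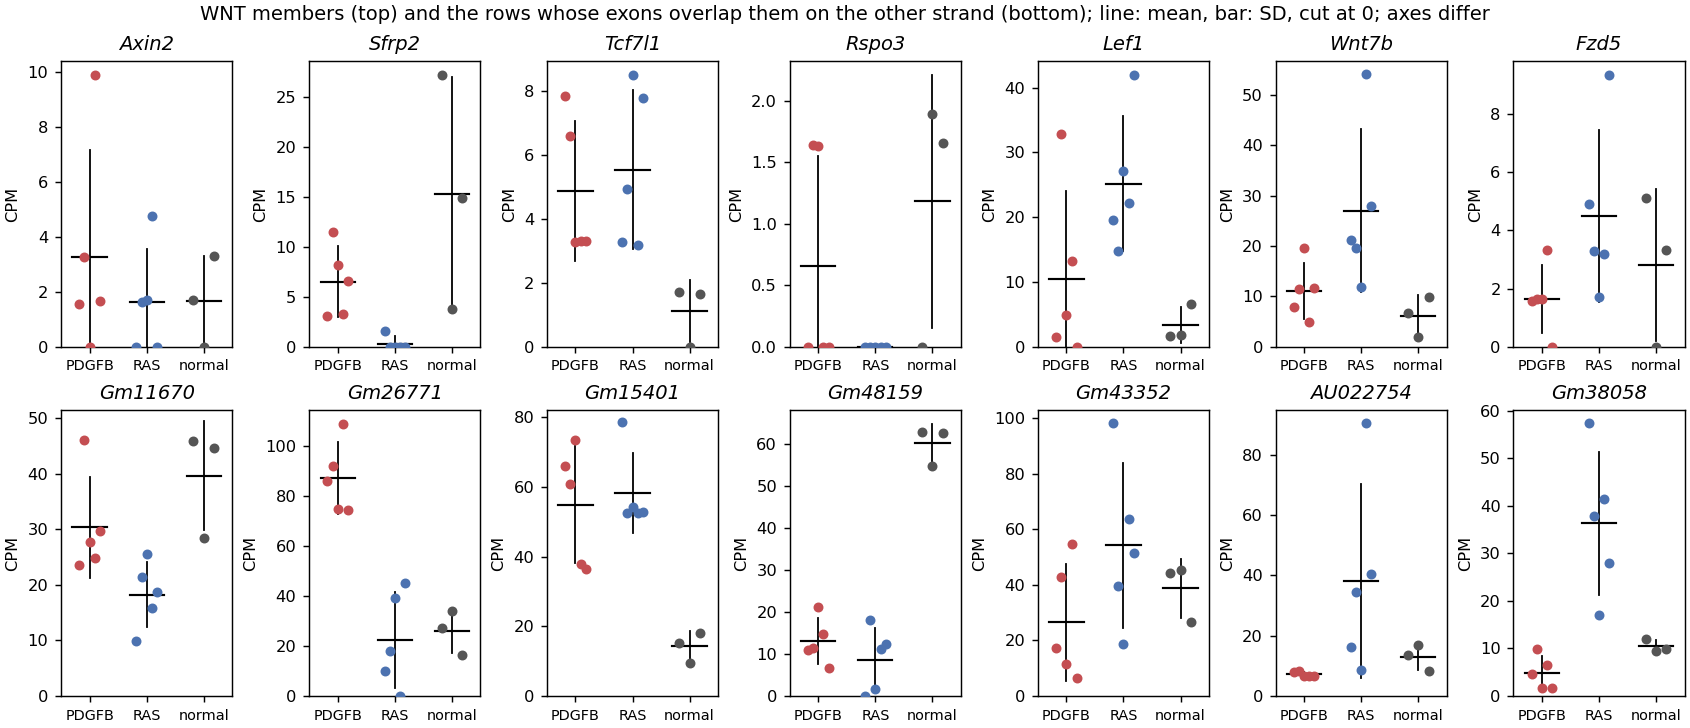
Level in CPM (vertical, axes differ) of 7 members (top) and of the tested rows whose exons overlap them on the other strand (bottom), 1 point per library, with mean and SD. The opposite rows of Axin2, Sfrp2, Tcf7l1, Rspo3 and Fzd5 are far better covered than the members themselves, and Wnt7b and AU022754 both peak in RAS tumor 4.

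Over the 10 rows opposite members, 7 passed the filter, and 3 of them passed the test in PDGFB tumors and 5 in RAS tumors against normal brain, and 3 between the tumor types. The background shares are those given for the members above. Where a member and its opposite row both passed in the same comparison, without the filter where needed, they moved the same way in Wnt7b with AU022754 (RAS tumors against normal brain and between tumors) and in Sfrp2 with Gm26771 (between tumors). In the fit without the filter the same was found for Wnt5a with Gm2670, both higher in RAS tumors than in normal brain (Gm2670 2.79 ± 0.83, adjusted p = 0.00461), and for Lef1 with Gm43352, both lower in PDGFB than in RAS tumors (-1.34 ± 0.43 and -1.09 ± 0.33, adjusted p = 0.018 and 0.00928). Pairs in which a row did not pass could differ in sign. In PDGFB tumors against normal brain without the filter, Sfrp2 was at -1.32 (edgeR adjusted p = 0.142) and Gm26771 at 1.64 (0.000233). Lef1, Wnt7b and Axin2 were at 1.43, 0.69 and 0.76 there, with opposite rows at -0.66, -0.94 and -0.50, and none passed. Fzd6 and Wnt11 also differed in sign from their rows there, whereas Fzd5, Rspo3, Tcf7l1 and Wnt5a did not. The rows Gm26704 opposite Fzd6 and Gm8398 opposite Wnt11 had 4 and 2 reads.

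The other genes of the pathway were taken from 6 lists with 109 genes in the table, of which 48 passed the filter. In PDGFB tumors 12 rose and 12 fell against normal brain, in RAS tumors 13 rose and 13 fell, and between the tumor types 4 were higher and 8 lower in PDGFB tumors; these are 24, 26 and 12 of 48, beside 45.3%, 56.2% and 32.1% of all genes tested. Among receptor genes 2 of 15 were tested. Ryk, a WNT receptor with an inactive kinase domain, rose by 2.77 ± 0.77 (log2) in PDGFB tumors (adjusted p = 0.00721) and 3.11 ± 0.75 in RAS tumors (0.00199). Lgr6, a receptor for R-spondins, was at 24.1 ± 10.3 CPM (SD, n = 5) in RAS tumors, 1.31 ± 2.13 in PDGFB tumors (n = 5) and 1.67 ± 1.65 in normal brain (n = 3), and passed in RAS tumors (3.57 ± 0.81, edgeR adjusted p = 0.00117) and between the tumor types (-4.13 ± 0.67, adjusted p = 0.000200).

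The secretion machinery had 1 of 12 genes tested. Wls, the carrier that brings WNT ligands to the cell surface, was at 37.7 ± 20.95 CPM (SD) in the 5 RAS tumors, 12.7 ± 1.32 in the 5 PDGFB tumors and 4.66 ± 2.60 in normal brain. It rose in RAS tumors (2.88 ± 0.57, edgeR adjusted p = 0.000370) and was lower in PDGFB than in RAS tumors (-1.70 ± 0.40, 0.00345).

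In the destruction complex and its cytoplasmic partners, 17 of 25 genes were tested. In PDGFB tumors 3 rose and 1 fell, in RAS tumors 3 rose and 4 fell, and between tumors 2 were higher and 2 lower in PDGFB tumors, so 4, 7 and 4 of 17 passed, beside the 45.3%, 56.2% and 32.1% of all genes. Apc, the large scaffold that tethers beta-catenin for destruction, fell by 1.18 ± 0.36 in PDGFB tumors (adjusted p = 0.0119) and by 1.82 ± 0.37 in RAS tumors (0.000477). The kinase gene Csnk1e, which lies opposite an exon of Gm16059, rose in PDGFB tumors (1.21 ± 0.35, adjusted p = 0.00915) and in RAS tumors (1.31 ± 0.35, adjusted p = 0.00410). Cby1, an inhibitor that binds beta-catenin, rose in RAS tumors (2.50 ± 0.62, adjusted p = 0.00220), and Ctnnbip1, another such inhibitor that faces an exon of Gm13066, rose in PDGFB tumors (3.10 ± 0.80, 0.00447). Cby1 was lower (-1.94 ± 0.45, 0.00363) and Ctnnbip1 higher (1.62 ± 0.53, 0.0265) in PDGFB than in RAS tumors.

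Of the nuclear co-factors, 7 of 17 were tested. In PDGFB tumors 2 rose and 1 fell, in RAS tumors 1 rose, and between tumors 2 were lower in PDGFB tumors, which makes 3, 1 and 2 of 7, beside 45.3%, 56.2% and 32.1% of all genes. The histone deacetylase gene Hdac1 rose in both tumor types (1.99 ± 0.62, adjusted p = 0.0148, and 2.24 ± 0.62, 0.00519). The acetyltransferase gene Ep300 rose in PDGFB tumors (1.15 ± 0.33, 0.00883), and Aes, a short relative of the Groucho co-repressors, fell there by 1.06 ± 0.26 (adjusted p = 0.00353). Aes (-0.84 ± 0.23, 0.0106) and the co-repressor gene Tle3 (-1.11 ± 0.41, 0.0485) were lower in PDGFB than in RAS tumors.

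The planar polarity and calcium branch had 13 of 22 genes tested, and 9 fell in PDGFB tumors and 8 in RAS tumors while 2 rose in each. Over all genes tested 25.1% fell and 20.2% rose in PDGFB tumors, and 29.3% fell and 26.9% rose in RAS tumors. The genes with the greatest falls were Camk2a, a calcium-dependent kinase abundant in excitatory neurons (by 4.09 ± 0.69 in PDGFB and 4.22 ± 0.70 in RAS tumors, adjusted p = 0.000158 and 8.12e-05), Mapk9 in PDGFB tumors (by 2.08 ± 0.42, 0.000728), Mapk10 in RAS tumors (by 3.66 ± 0.67, 0.000175) and Camk2b in RAS tumors (by 3.22 ± 0.44, 1.17e-05). Between the tumor types Mapk10 (1.93 ± 0.68, 0.0369) and Camk2b (1.73 ± 0.41, 0.00415) were higher in PDGFB tumors, and Rhoa, which encodes a small GTPase and faces exons of Tcta and Gm37401, was lower (-0.79 ± 0.21, 0.00881). Camk2a is also on the neuron list, whose levels are given above, and the part of neurons in these falls was not tested.

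Of the beta-catenin target genes, 8 of 24 were tested, and 4 rose and 1 fell in each tumor type, where 20.2% of all genes rose and 25.1% fell in PDGFB tumors and 26.9% rose and 29.3% fell in RAS tumors. Ccnd1, the cyclin of the first growth phase, was at 472 ± 59.7 CPM (SD, n = 5) in PDGFB tumors, 469.7 ± 51.9 in RAS tumors (n = 5) and 66.7 ± 2.14 in normal brain (n = 3), and rose by 2.59 ± 0.20 and 2.71 ± 0.20 (edgeR adjusted p = 8.75e-08 and 3.26e-08); its exons face LTO1. The adhesion receptor gene Cd44 had no read in normal brain and rose in both tumor types (adjusted p = 0.000479 and 7.19e-07). With 3 reads set over normal brain in place of 0, it was 6.36-fold higher in PDGFB and 40.4-fold higher in RAS tumors. It was lower in PDGFB than in RAS tumors (-2.79 ± 0.32, adjusted p = 1.32e-05). The genes Myc in PDGFB tumors (1.43 ± 0.44, 0.0132) and Sox9 in RAS tumors (1.59 ± 0.60, 0.0308) also rose. The gene that fell in both was Fosl1, which encodes a subunit of the transcription factor AP-1 and faces exons of Ccdc85b (by 1.03 ± 0.29, adjusted p = 0.00861, and by 1.42 ± 0.30, 0.000628). These genes answer to many signals besides WNT, and Axin2 itself, below the filter, passed in no comparison without it.

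Promoter sequence was compared because the pathway acts through TCF/LEF factors. The core words of their sites, CTTTGA and CTTTGT, were searched on both strands of the 250 bases before the start in RefSeq (GRCm38.p6), where 32 of the 49 members had an entry. A match was present in 10 of 40 member promoters (25.0%), beside 27.6% of 32851 promoters of the same length. The promoters of Axin2 (chr11:108920099-108920348, plus strand) and of Fzd1 (chr5:4758217-4758466, minus strand) are shown as the pathway's readout and as a receptor that rose in both tumor types, 5′ to 3′ on the strand of the gene, with matches in capitals.
Axin2 promoter: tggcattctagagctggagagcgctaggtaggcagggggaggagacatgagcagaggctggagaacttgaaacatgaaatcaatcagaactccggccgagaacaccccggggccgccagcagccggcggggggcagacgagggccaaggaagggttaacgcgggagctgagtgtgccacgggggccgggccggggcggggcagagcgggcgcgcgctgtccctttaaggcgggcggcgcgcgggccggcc
Fzd1 promoter: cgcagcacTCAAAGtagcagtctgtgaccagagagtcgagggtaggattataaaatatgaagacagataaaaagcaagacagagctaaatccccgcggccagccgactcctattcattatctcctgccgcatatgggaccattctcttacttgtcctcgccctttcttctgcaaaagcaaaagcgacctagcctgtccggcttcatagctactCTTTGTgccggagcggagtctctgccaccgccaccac
The Fzd1 window held 2 matches, 1 on each strand, and the Axin2 window held none. A match is a description of letters, and its absence says only that these letters are not in this window.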

How the data were processed

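Per the labels' protocols, Trizol was used for RNA and a TruSeq RNA kit for the libraries. Tools named in the submitters' processing notes are STAR 2.7.9a and fastp 0.22.0, with GRCm38 as the build. The annotation and strand setting of the count are not given in the sources used here. The authors deposited counts of whole reads per Ensembl gene, not normalized. Reads in no feature (84.5% to 87.3%), multimapping, unmapped and ambiguous reads stayed out of library sizes.

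Symbols, exons and strands came from GENCODE M21. Tumor groups and replicate numbers came from sample titles, and normal brain from the tissue label; the title of 1 normal sample starts with MBT and the others with NBT. Replicates differed by more than sampling noise (lowest chi-square per degree of freedom 1.69).

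The test was the quasi-likelihood F test of edgeR 4.0.16 (R 4.3.3), with the 3 groups of 13 libraries in a single fit, TMM factors and the filter filterByExpr (minimum count 10, minimum total 15). Tests were two-sided, and calls used a Benjamini-Hochberg adjusted p under 0.05 over all 7722 genes tested. Intervals of log2 differences are the estimate plus and minus 2 SE, which is about 95%, with the SE derived from the F statistic. Counting intervals are 95% and cover counting error alone, because PCR copies were not told apart. The floor of 3 reads covers the counting error of a group with no read, and not that of the other group or the spread between libraries. In simulated counts for PDGFB tumors against normal brain (7285 genes), 15.0% of 2-fold and 89.0% of 4-fold changes were recovered, with 3.70% false calls. There 100 genes changed at each fold, all averaging about 10 reads or more in a library, and no other gene differed between groups. Far more genes were called in the data, and members with fewer reads were not simulated, so the rates hold for those settings only. Alternatives were DESeq2 1.42.0, its median-of-ratios factors in edgeR, library totals, no low-count filter, an adjusted p under 0.01, only the 2 groups compared, a replicate block, members with no opposite exon, and each library left out; leaving out libraries without the filter was added after seeing the data.

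Members, gene lists and tests were chosen with earlier results of these data known. Named with values were members and opposite rows that passed the filter, other members with at least 20 reads, and of each pathway list up to 3 called genes with the largest change in a comparison. Members under 20 reads that passed without the filter (Wnt4, Rspo2 and Wnt6) and the target gene Fosl1 were named after their values were seen.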

Additional observations from a re-analysis of the deposited data

Results flagged for a closer look

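In 6 of 59 groups of 5 tumor libraries, 1 library stood far from the rest. How often this arises by chance was not measured, and sparse counts such as the single Sfrp2 read can give it easily. RAS tumor 5 was at 162 CPM for Dkk2, where the other RAS tumors were at 6.55 to 22.1 CPM, and at 17.1 CPM for Sfrp4, where they were at 0 to 4.91 CPM. RAS tumor 1 was at 1.64 CPM for Sfrp2, which is a single read where the other RAS tumors had none, and at 78.6 CPM for Gm15401, where they were at 52.5 to 54.4 CPM. RAS tumor 2 was at 34.5 CPM for Tcf7l2, against 7.78 to 14.3 CPM. PDGFB tumor 2 was at 46.0 CPM for Gm11670, against 23.5 to 29.8 CPM.

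For 4 genes the tumor types moved in opposite directions from normal brain, with a tested difference between them. For Fzd3 the log2 difference between PDGFB and RAS tumors was 2.20 (0.21 in PDGFB and -1.996 in RAS tumors; adjusted p of the difference 0.0212). For AU022754, opposite Wnt7b, it was -2.54 (-1.06 and 1.48; 0.00153). For Gm26771, opposite Sfrp2, it was 1.80 (1.51 and -0.29; 0.00856). For Gm38058, opposite Fzd5, it was -2.98 (-1.30 and 1.68; 6.98e-05). These adjusted p-values are from edgeR. The RAS effect of Gm26771 and the PDGFB effects of Fzd3, AU022754 and Gm38058 did not pass the test on their own.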

How the results depend on the processing

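Calls for Fzd1, Lrp6 and Wnt2b in both tumor types, and for Wnt7b and Fzd8 in RAS tumors against normal brain, held at an adjusted p under 0.05 in every alternative run. The number of members called in PDGFB tumors against normal brain was 4, and 2 at an adjusted p under 0.01. In RAS tumors it was 7, with 14 when no low-count filter was used and 4 at an adjusted p under 0.01. Between the tumor types it was 2, with 7 without the filter, 1 in a fit of the 2 groups alone, 1 among members with no opposite exon, 0 at an adjusted p under 0.01, and 0 in a fit with the replicate number as a block. With libraries left out in turn the 3 counts ranged from 3 to 4, 6 to 8 and 1 to 3; the lowest, 1, came without PDGFB tumor 1, 4 or 5 or RAS tumor 4. Other pathway genes called numbered 24 in PDGFB tumors (13 at an adjusted p under 0.01) and 12 between tumor types (7 at that threshold and 7 with the replicate block). The replicate numbers do not pair the tumors: deviations of same-numbered tumors correlated at -0.129 to 0.139, and 2 of 10 tumors correlated best with their own number. Under the block 5 members were tested, and Wnt7b had an adjusted p of 0.0715.

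Differences that did not pass changed sign in places. Lrp6 between tumor types was 0.12 with library totals, 0.053 without the filter and -0.18 to 0.10 with libraries left out. Tcf7l2 against normal brain was 0.028 in RAS tumors with library totals. With libraries left out, it ranged from -0.41 to 0.39 in RAS tumors, from -0.45 to 0.23 in PDGFB tumors and from -0.34 to 0.26 between tumor types. On leaving out libraries, Dkk3 in RAS tumors ranged from -0.51 to 0.055, Fzd3 in PDGFB tumors from -0.031 to 0.58, Wnt2b between tumor types from -0.74 to 0.13, and Gm26771 in RAS tumors from -0.64 to 0.14. Library totals moved the median of all genes to 0.23, 0.11 and 0.17 in the 3 comparisons, so differences on that scale are relative to it. The cause of these changes was not tested. With at most 643055 reads counted for genes per library, 40 of the 49 members were below the low-count filter. The strand on which reads were counted is not given in the sources used here, and its part in these low counts was not tested.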
